A study of Mus musculus with 16 samples.

Results

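Memory CD8 T cells from mice with Il4i1 knockout (KO) or wild-type (WT) bone marrow were compared on 8 arrays, those titled Memory KO and Memory WT, out of 16 in the series. The other arrays hold effector CD8 T cells of the same genotypes. They enter below only through the shared estimate of the spread and where a difference is set against memory cells. Both memory groups, 4 arrays each, held CD8 T cells sorted from spleen as CD44 high and CD127 high, from female mice whose strain label reads C56BL/6. The animals were bone marrow chimeras: the memory KO group had received marrow lacking Il4i1 and the memory WT group WT marrow. All of them had then been given chronic lymphocytic leukaemia (CLL) cells from Eµ-TCL1 mice, in which a TCL1 oncogene is driven in B lineage cells, and the T cells were taken after 5 weeks. In a chimera of this kind the deletion reaches the blood lineages that grow from the donor marrow and not the other tissues of the host. CD8 T cells and host myeloid cells of the same marrow thus share the genotype, while the injected leukaemic B cells come from other mice. The labels used here give no age, do not say whether host blood cells remained, and leave it unsaid whether each array of a group is its own mouse, so the p-values rest on the spread among these samples, which may be technical.

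CD127 is the interleukin-7 receptor alpha chain, which long-lived memory CD8 T cells keep and recently stimulated effector cells lose. Under lasting stimulation, as by a growing leukaemia, CD8 T cells take on inhibitory receptors such as PD-1, LAG-3, TIM-3 and TIGIT together with the transcription factor TOX, a state named exhaustion. Il4i1 encodes a secreted oxidase of aromatic amino acids, known from antigen-presenting cells, whose products can activate the aryl hydrocarbon receptor and whose activity restrains T cells. The comparison asks what the loss of this enzyme in blood cells does to the memory CD8 T cells of leukaemia-bearing mice.

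Values are the authors' deposited expression values, taken as log2, for the brightest single-gene probe set of each of 22180 genes. Differences are KO minus WT on that scale. The gene lists used below were chosen with earlier results of these data known. Their shares beside those of all genes therefore describe the lists and do not test them. A gene was called when its adjusted p, from limma with Benjamini-Hochberg adjustment over all genes, was under 0.05, and errors of differences are standard errors (SE) with 4 arrays a group. Il7r, which encodes CD127, lay between 10.29 and 11.27 on the 8 memory arrays and between 3.83 and 6.60 on the 8 effector arrays. Cd8b1 lay between 11.56 and 11.86 on the memory arrays. The targeted gene has no probe set of its own, and the 1 shared by Nup62, Il4i1 and Il4i1b read 5.54, 5.68, 5.86 and 5.6 on KO arrays 1 to 4 and 5.96, 6.03, 6.05 and 5.93 on WT arrays 1 to 4. Its groups did not overlap (exact two-sided permutation p = 0.0286, the smallest that 4 arrays against 4 can give), but its signal is not that of Il4i1 alone and does not check the labels. Pairs of memory WT arrays correlated over genes at 0.988 to 0.992, KO arrays 2 and 3 with WT at 0.985 to 0.992, and KO arrays 1 and 4 with WT at 0.976 to 0.986. The sorted cells were measured in bulk, and fewer cells of a type and less RNA per cell cannot be told apart in any difference given here.

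Of all genes, 25 were called (0.113%), 8 rose in memory KO (0.0361%) and 17 fell (0.0766%), while the median difference over all genes was 0.02. Over all 41345 probe sets, named or not, 13 were called (0.0314%). In all 25 called genes, no KO array lay within the WT range, a separation that 3.37% of all genes showed downward and 3.12% upward. Centring each array on its median gave 38 calls, of which 21.1% rose, beside 32% here. A further 53 genes had an adjusted p between 0.05 and 0.10, 41 of them lower in KO. Leaving out memory KO 1 or memory KO 4 gave 13 or 11 calls, while leaving out memory KO 3 gave 249 (1.12%), 213 lower (0.96%) and 36 higher (0.162%), among them all 25. Memory KO 3 was the memory array whose removal raised the count most. It was singled out for that, so counts without it describe the gene groups and do not test them. They are given below for the inhibitory receptor, exhaustion, mitosis, replication and B cell lists. Also without it, 2 type I interferon genes (0 with it) and 3 effector cytokines and chemokines (2 with it) were called. The interferon gamma response, aryl hydrocarbon receptor, cytokine receptor and plasma cell lists each went from 0 called to 1.

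**Figure D1:**
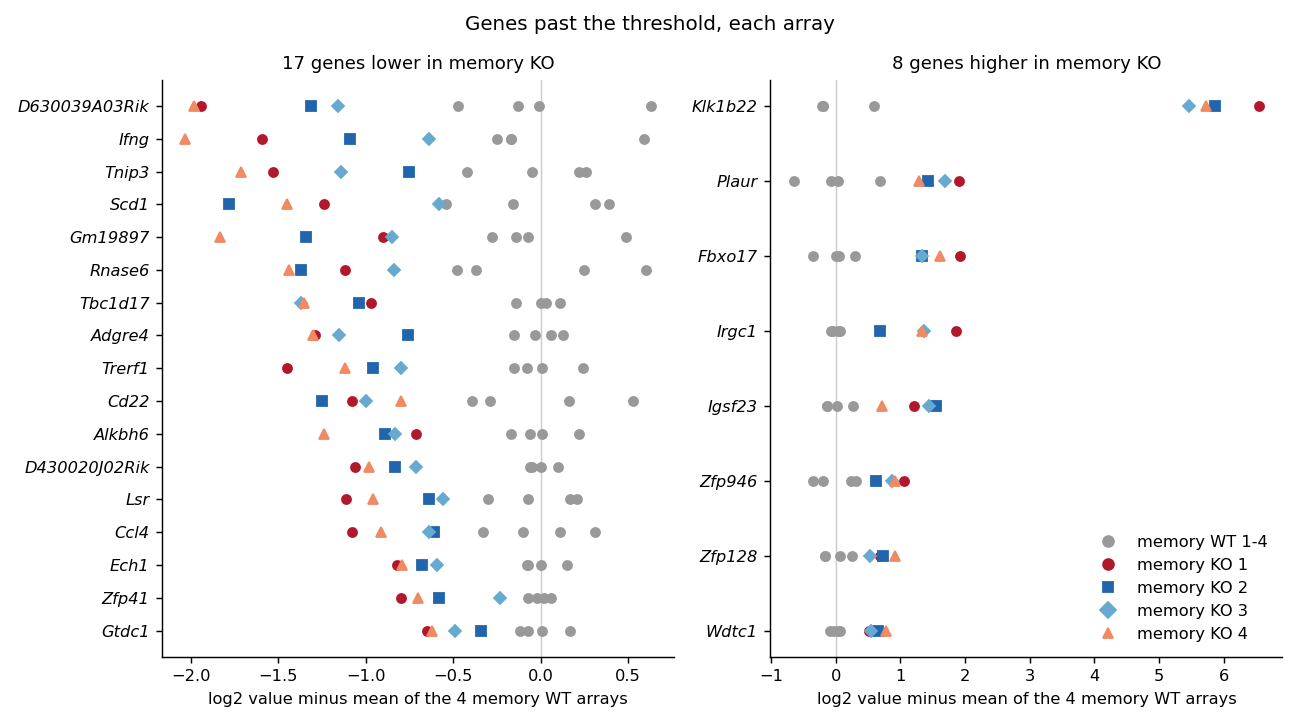
Each of the 25 called genes on each memory array, as the log2 value minus the mean of the 4 memory WT arrays (horizontal axis), with memory WT arrays in grey and memory KO arrays 1 to 4 by symbol. No KO symbol lies within the grey range of its gene, and memory KO 3 is often the KO array nearest to it, as for Ifng and Zfp41.

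Secreted products of activated CD8 T cells were among the genes that fell. Ifng, which encodes interferon gamma, read 8.20, 8.70, 9.15 and 7.76 on KO arrays 1 to 4 and 9.62, 10.38, 9.62 and 9.54 on WT arrays 1 to 4, a difference of -1.34 ± 0.24 (adjusted p = 0.0404). All KO arrays lay below all WT arrays, KO 4 lowest and KO 3 nearest, and WT 2 stood above the other WT arrays. Ccl4, a chemokine that activated CD8 T cells release to draw in other leukocytes, read 7.28, 7.75, 7.72 and 7.45 in KO and 8.26, 8.67, 8.47 and 8.03 in WT, a difference of -0.81 ± 0.13 (adjusted p = 0.0234). Its close relative Ccl3 had a wider gap but also a wider spread, at 8.56, 9.92, 10.19 and 8.13 in KO and 10.68, 11.69, 10.97 and 10.42 in WT (-1.74 ± 0.36, adjusted p = 0.0754). Ccl3 and Ccl4 were thus lower on all KO arrays, and KO 1 and KO 4 held the lowest values of both genes. Ifng and Ccl4 each stayed called in 3 of the 8 fits that left out 1 memory array, with adjusted p up to 0.146 and 0.104 in the others.

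With Ifng and Ccl4 included, the 19 listed effector cytokines and chemokines were near evenly split, 9 higher and 10 lower with a median of -0.04. Csf1, a macrophage growth factor, stood at -1.27 ± 0.37 (adjusted p = 0.214), and Tnf, on the same list, differed by 0.39 ± 0.23 (adjusted p = 0.567). Of 19 cytotoxic granule genes, 15 were lower and 0 called, with a median of -0.21. Prf1, which encodes perforin, read 10.07, 10.72, 10.56 and 10.34 in KO and 10.83, 11.36, 10.78 and 10.59 in WT (-0.47 ± 0.17, adjusted p = 0.303), with KO 2 inside the WT range. Gzmb, a granzyme, was at -0.43 ± 0.17 (adjusted p = 0.345) and Stx11, a syntaxin of granule release, at -0.78 ± 0.22 (adjusted p = 0.2). Tnip3, which encodes an inhibitor of NF-kB signalling, fell, from 6.38, 6.42, 5.74 and 6.11 in WT to 4.63, 5.41, 5.02 and 4.45 in KO (-1.29 ± 0.22, adjusted p = 0.0334). It was the only one called of 18 NF-kB pathway genes, whose median was -0.08, and Tnfaip3, which encodes the inhibitor A20, stood at -0.43 ± 0.17 (adjusted p = 0.341).

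Inhibitory receptors divided into those lower on all 4 KO arrays and others that overlapped with WT or were higher. Of 23 measured, 14 were lower and 9 higher, 0 were called, and 10 had an unadjusted p under 0.05 downward, against 6.08% of all genes. In 9 of the 23 all KO arrays lay below all WT arrays, against 3.37% of all genes: Tigit, Lag3, Havcr2, Cd200r1, Entpd1, Pdcd1, Ctla4, Cd244a and Cd101. The list median was -0.22, and the differences ran from -1.97 to 0.63. Cd300a, Lair1 and Cd5 stood on the other side, at 0.39 ± 0.11, 0.63 ± 0.27 and 0.23 ± 0.15, and none of them was called.

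Tigit, whose product competes with a costimulatory receptor for ligand, read 7.24, 9.18, 9.24 and 7.99 on KO arrays 1 to 4 and 10.08, 10.45, 10.01 and 10.03 on WT arrays 1 to 4 (-1.73 ± 0.32, adjusted p = 0.052). Havcr2, which encodes TIM-3, read 5.50, 7.15, 7.54 and 6.37 in KO and 8.42, 9.07, 8.65 and 8.26 in WT (-1.97 ± 0.41, adjusted p = 0.0797). Pdcd1, which encodes PD-1, read 7.12, 9.25, 8.65 and 6.99 in KO and 9.62, 10.18, 9.58 and 9.46 in WT (-1.71 ± 0.40, adjusted p = 0.123). These 3 genes shared a pattern: KO 1 and KO 4 lay far below WT, and KO 2 and KO 3 lay below WT by less. Lag3, whose product binds MHC class II, had the same order, at 7.10, 8.09, 8.37 and 7.06 in KO and 8.90, 9.78, 8.98 and 8.43 in WT (-1.37 ± 0.28, adjusted p = 0.0754). Cd200r1 was different, with a narrow KO group at 4.07, 4.28, 4.48 and 4.08 against 5.79, 5.85, 5.87 and 5.59 in WT (-1.55 ± 0.32, adjusted p = 0.0797), so the KO arrays lay close together and well below WT. It also differed by nearly as much in effector cells, at -1.48, where Tigit stood at -0.53 and Lag3 at -0.21. Without memory KO 3 the adjusted p of Tigit, Lag3, Havcr2, Cd200r1, Entpd1 and Pdcd1 came to 0.00583, 0.0099, 0.0166, 0.0384, 0.0274 and 0.0381. These were the 6 list members called then, against 1.12% of all genes. As KO 3 was singled out for raising the count most, these values describe the list and do not test it.

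Transcription factors and other genes of chronic stimulation were mostly lower in KO too, and KO 1 and KO 4 were the lowest KO arrays in 17 of the 22 measured. Of the 22, 20 were lower and 1 was called (Ccl4), with a list median of -0.70. In 15 the unadjusted p was under 0.05 downward, against 6.08% of all genes. In 12 all KO arrays lay below all WT arrays, against 3.37% of all genes, on a list chosen with earlier results of these data known. Tox read 8.48, 9.10, 9.02 and 8.43 in KO and 9.37, 9.69, 9.42 and 9.31 in WT (-0.69 ± 0.17, adjusted p = 0.143). Prdm1, which encodes the effector regulator BLIMP-1, was at -0.91 ± 0.20 (adjusted p = 0.0887), Bhlhe40 at -0.89 ± 0.21 (adjusted p = 0.122) and Nr4a2, a nuclear receptor induced by T cell receptor signals, at -1.71 ± 0.45 (adjusted p = 0.17). Tnfrsf9, which encodes the costimulatory receptor 4-1BB, read 7.25, 8.53, 8.98 and 6.72 in KO and 9.73, 10.69, 9.55 and 9.16 in WT (-1.91 ± 0.50, adjusted p = 0.174), again with KO 1 and KO 4 lowest. The mean of the list was 7.29, 7.99, 8.09 and 7.20 on KO arrays 1 to 4, 8.40, 8.85, 8.49 and 8.30 on WT arrays 1 to 4, and 8.98 to 9.10 on the effector WT arrays. On this list memory WT thus lay between memory KO and effector WT, and no KO array reached the WT range. Without memory KO 3, 9 of the 22 were called, against 1.12% of all genes, a description and not a test.

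**Figure D2:**
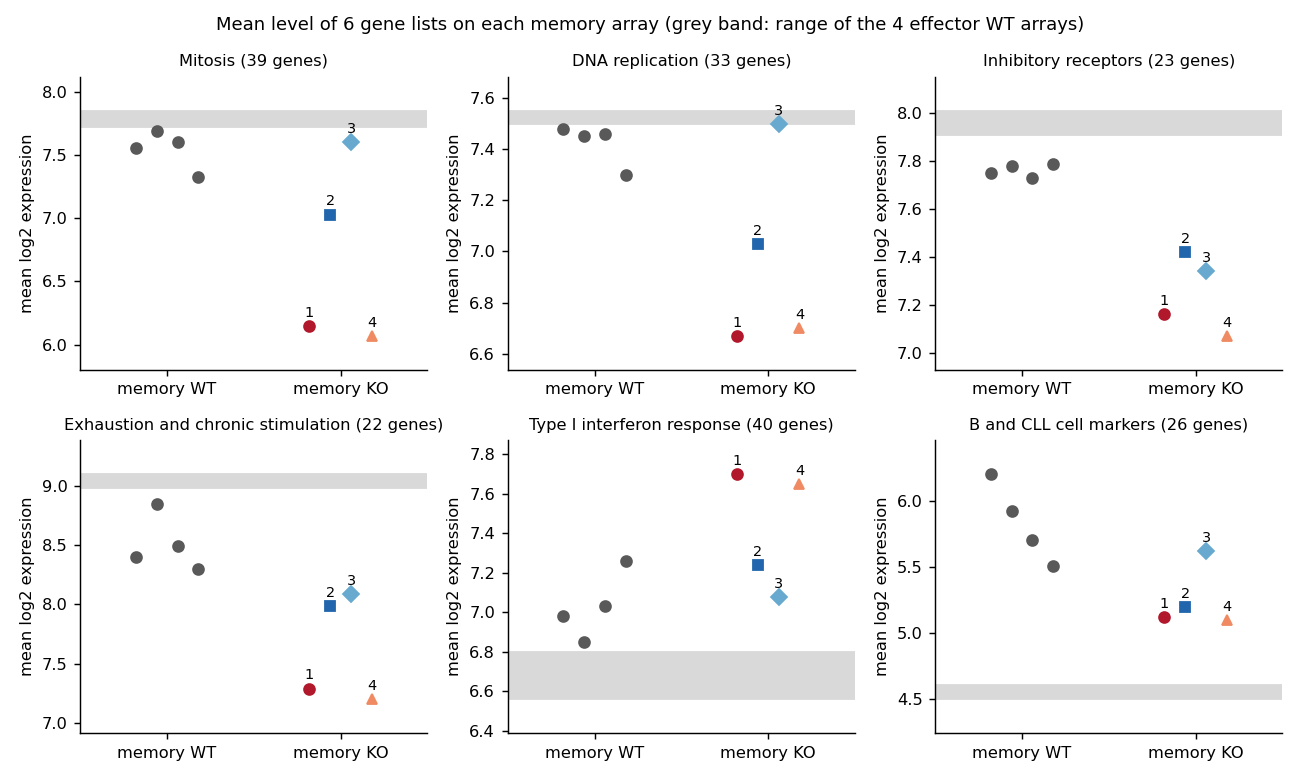
Mean log2 expression over the genes of 6 lists (vertical axis) on each memory WT array (grey) and each memory KO array (numbered symbols); the band is the range of the 4 effector WT arrays. Memory KO 3 lies within or above the WT points for mitosis and DNA replication but below them for inhibitory receptors and exhaustion genes.

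Proliferation genes were lower in memory KO as a whole, but not on every KO array. Of 39 measured genes of mitosis, 39 were lower, where 45.2% of all genes were, and 0 were called. In 33 the unadjusted p was under 0.05 downward, against 6.08% of all genes. The median was -0.88 and the differences ran from -1.14 to -0.03. The mean over the list was 6.15, 7.03, 7.6 and 6.07 on KO arrays 1 to 4 and 7.56, 7.69, 7.6 and 7.33 on WT arrays 1 to 4, against 7.72 to 7.85 on effector WT arrays. KO 1, KO 2 and KO 4 lay below the lowest WT array in 38, 34 and 38 of the 39 genes, where 26.1%, 21% and 22.5% of all genes did so, and KO 3 in 3 of the 39, where 17.3% of all genes did so. KO 3 lay above the highest WT array in 10 of them, a share near the 24% of all genes, and was the highest of the KO arrays in 38, against 27.8% of all genes.

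Mki67, which encodes the proliferation antigen Ki-67, read 8.62, 9.35, 9.92 and 8.56 in KO and 9.81, 10.16, 9.77 and 9.79 in WT (-0.76 ± 0.23, adjusted p = 0.216). Cdk1, the kinase that drives entry into mitosis, read 7.23, 8.43, 9.12 and 7.06 in KO and 9.20, 9.07, 9.19 and 8.66 in WT (-1.07 ± 0.32, adjusted p = 0.224). In both genes KO 3 lay inside the WT range while the other KO arrays lay below it. Hmmr, a spindle gene, had the smallest p of the list (-1.14 ± 0.28, adjusted p = 0.143) and read 6.39 on KO 3, beside 6.36 to 6.68 in WT. Without memory KO 3, the highest KO array in 38 of the 39 mitosis genes, 25 of them were called, against 1.12% of all genes. Mki67 then had an adjusted p of 0.0099 and Cdk1 of 0.0114, values that do not test these genes, as KO 3 was singled out. In effector cells, which share no array with this comparison, the median of the list was -0.09. The effector medians of the replication and exhaustion lists were -0.04 and -0.23. Those of the inhibitory receptor, type I interferon and memory lists were -0.21, 0.22 and 0.22, nearer to the memory cell medians of these lists. Differences between list medians were not tested.

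Genes of DNA replication followed, with smaller differences: 32 of 33 were lower, 0 were called, and the median was -0.42. In 18 the unadjusted p was under 0.05 downward, against 6.08% of all genes. Cdc45, a subunit of the replicative helicase, read 5.73, 6.32, 7.11 and 5.51 in KO and 7.06, 7.07, 7.09 and 6.90 in WT (-0.86 ± 0.24, adjusted p = 0.19). KO 3 was here above all WT arrays, and it was the highest KO array in 32 of the 33 genes. Rfc3, of the clamp loader, stood at -0.58 ± 0.14 (adjusted p = 0.131) and Mcm6, another helicase subunit, at -0.40 ± 0.12 (adjusted p = 0.238). Without memory KO 3, 8 of the 33 were called, against 1.12% of all genes, again a description and not a test. Pold1, which encodes the catalytic subunit of a replicative DNA polymerase, is not on that list and lies on chromosome 7, as Il4i1 does. Pold1 was among the genes nearest to the threshold in all data, at 7.45, 7.68, 8.31 and 7.61 in KO and 8.73, 8.54, 8.65 and 8.39 in WT (-0.82 ± 0.15, adjusted p = 0.052). For Pold1 all KO arrays lay below all WT arrays, KO 3 nearest.

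Promoter sequences of such genes carry known elements, shown here because the members of each list moved together across the arrays. RefSeq promoters of build GRCm38.p6, 250 bases before to 50 after the start, were found for 31 of the 39 mitosis genes and 29 of the 33 replication genes, and 16990 of all genes tested. The letters TTTGAA of the cell cycle homology region, an element of late cell cycle genes, searched on both strands, were in 25 of 31 mitosis promoters (80.6%) and in 17.8% of all promoters. The letters TTTCGCGC of an E2F site, an element of S phase genes, were in 7 of 29 replication promoters (24.1%) and in 0.494% of all. The 150 bases before the start are printed 5′ to 3′ on the gene's strand, with each match in capitals, for Ube2c (chr2:164769779-164769928, plus strand) and Cep55 (chr19:38054891-38055040, plus strand), both mitosis genes, and for Mcm6 (chr1:128359706-128359855, minus strand) and Orc1 (chr4:108579304-108579453, plus strand), both replication genes.
Ube2c: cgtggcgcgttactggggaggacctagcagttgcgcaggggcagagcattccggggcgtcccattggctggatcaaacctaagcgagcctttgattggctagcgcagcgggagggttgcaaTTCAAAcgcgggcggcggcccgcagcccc
Cep55: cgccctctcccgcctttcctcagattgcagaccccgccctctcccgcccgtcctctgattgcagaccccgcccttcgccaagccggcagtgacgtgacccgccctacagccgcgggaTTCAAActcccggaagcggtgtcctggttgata
Mcm6: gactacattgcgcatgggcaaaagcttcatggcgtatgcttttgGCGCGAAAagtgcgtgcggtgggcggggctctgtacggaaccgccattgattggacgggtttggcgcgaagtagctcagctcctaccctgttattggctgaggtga
Orc1: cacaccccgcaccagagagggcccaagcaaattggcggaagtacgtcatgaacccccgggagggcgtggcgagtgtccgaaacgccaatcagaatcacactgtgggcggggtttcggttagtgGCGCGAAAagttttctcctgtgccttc

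Ube2c, a ubiquitin conjugating enzyme of mitotic exit, and Cep55, of cell abscission, hold 1 match each at 29 and 33 bases before the start, and stood at -0.82 ± 0.23 and -1.06 ± 0.31. Mcm6 and Orc1, which encodes the largest subunit of the origin recognition complex, hold the E2F letters at 106 and 27 bases before the start, and Orc1 stood at -0.48. A match is a description of the sequence and says nothing of which factor was bound in these cells.

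Genes induced by type I interferon had higher levels in memory KO, above all on KO 1 and KO 4. Of 40 measured, 35 were higher, where 54.8% of all genes were, 18 with an unadjusted p under 0.05, where 5.19% of all genes were so upward, and 0 were called, with a median of 0.33. The list mean was 7.70, 7.24, 7.08 and 7.65 on KO arrays 1 to 4 and 6.98, 6.85, 7.03 and 7.26 on WT arrays 1 to 4, so KO 2 and KO 3 lay within the WT range. KO 1 and KO 4 lay above the highest WT array in 34 and 32 of the 40 genes, KO 2 and KO 3 in 18 and 11. In all genes these shares were 24%, 25.5%, 25.3% and 24% for KO 1, KO 4, KO 2 and KO 3.

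Usp18, which encodes a brake on interferon receptor signalling, read 8.64, 8.20, 8.10 and 8.90 in KO and 7.71, 7.57, 7.6 and 7.77 in WT (0.80 ± 0.23, adjusted p = 0.216), and all KO arrays were above all WT arrays. Oas2, a sensor of double-stranded RNA, read 6.32, 5.33, 4.87 and 6.33 in KO and 4.77, 4.81, 4.52 and 4.83 in WT (0.98 ± 0.26, adjusted p = 0.185), with KO 3 only just above WT. Irf9, the DNA-binding part of the interferon-activated complex, had a narrower spread, at 8.88, 9.05, 8.86 and 9.17 against 8.58, 8.42, 8.56 and 8.63 (0.44 ± 0.13, adjusted p = 0.223). In 9 of the 40 genes no KO array reached down to the WT range, against 3.12% of all genes. Ifnar2, a chain of the type I interferon receptor, was at 0.46 ± 0.14 (adjusted p = 0.242), and the 28 interferon gamma response genes were split, 15 higher and 13 lower, with a median of 0.02.

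The interferon-stimulated response element, searched on both strands as GAAA, any 2 bases and GAAA again, was in 15 of the 28 type I interferon genes with a RefSeq promoter (53.6%) and in 3.87% of all promoters. It is shown for Rsad2 (chr12:26456453-26456602, minus strand), whose product viperin blocks virus replication, and for Oas3 (chr5:120777660-120777809, minus strand), in the same layout as above.
Rsad2: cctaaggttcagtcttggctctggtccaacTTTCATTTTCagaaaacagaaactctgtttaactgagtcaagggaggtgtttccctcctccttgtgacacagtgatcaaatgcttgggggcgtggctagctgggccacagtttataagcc
Oas3: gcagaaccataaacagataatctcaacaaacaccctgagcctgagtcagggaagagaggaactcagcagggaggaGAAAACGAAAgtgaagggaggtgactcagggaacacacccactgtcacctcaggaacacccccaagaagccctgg

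Rsad2 holds 1 match 120 bases before the start and read 6.92, 6.44, 6.53 and 7.51 in KO and 5.72, 5.8, 6.21 and 6.35 in WT (0.83 ± 0.27, adjusted p = 0.251). Oas3 holds 1 match 75 bases before the start and read 8.20, 7.93, 7.87 and 8.70 in KO and 7.54, 6.99, 7.69 and 7.83 in WT (0.66 ± 0.25, adjusted p = 0.319). In both genes all KO arrays lay above all WT arrays, KO 4 highest.

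Memory and stem-like genes, which mark quiescent and recirculating T cells, were higher in 17 of 24 with a median of 0.34 and 0 called. Lef1, a transcription factor of naive and memory T cells, read 10.03, 9.89, 9.93 and 10.08 in KO and 9.78, 9.33, 9.68 and 9.49 in WT (0.41 ± 0.13, adjusted p = 0.241), without overlap. Satb1, a chromatin organizer, differed by 0.65 ± 0.28 (adjusted p = 0.385), Klf2, a regulator of trafficking, by 0.50 ± 0.24 (adjusted p = 0.453), both without overlap, and Il6ra, an interleukin-6 receptor chain, by 0.97 ± 0.31 (adjusted p = 0.25). For Il6ra the spread was wide, with 9.50, 8.80, 8.70 and 10.14 in KO and 8.91, 7.98, 8.68 and 7.71 in WT, and KO 2 and KO 3 lay inside the WT range. Memory WT 2, the array with the highest exhaustion list mean, had the lowest memory list mean of the WT arrays, 8.35 beside 8.58 to 8.68.

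**Figure D3:**
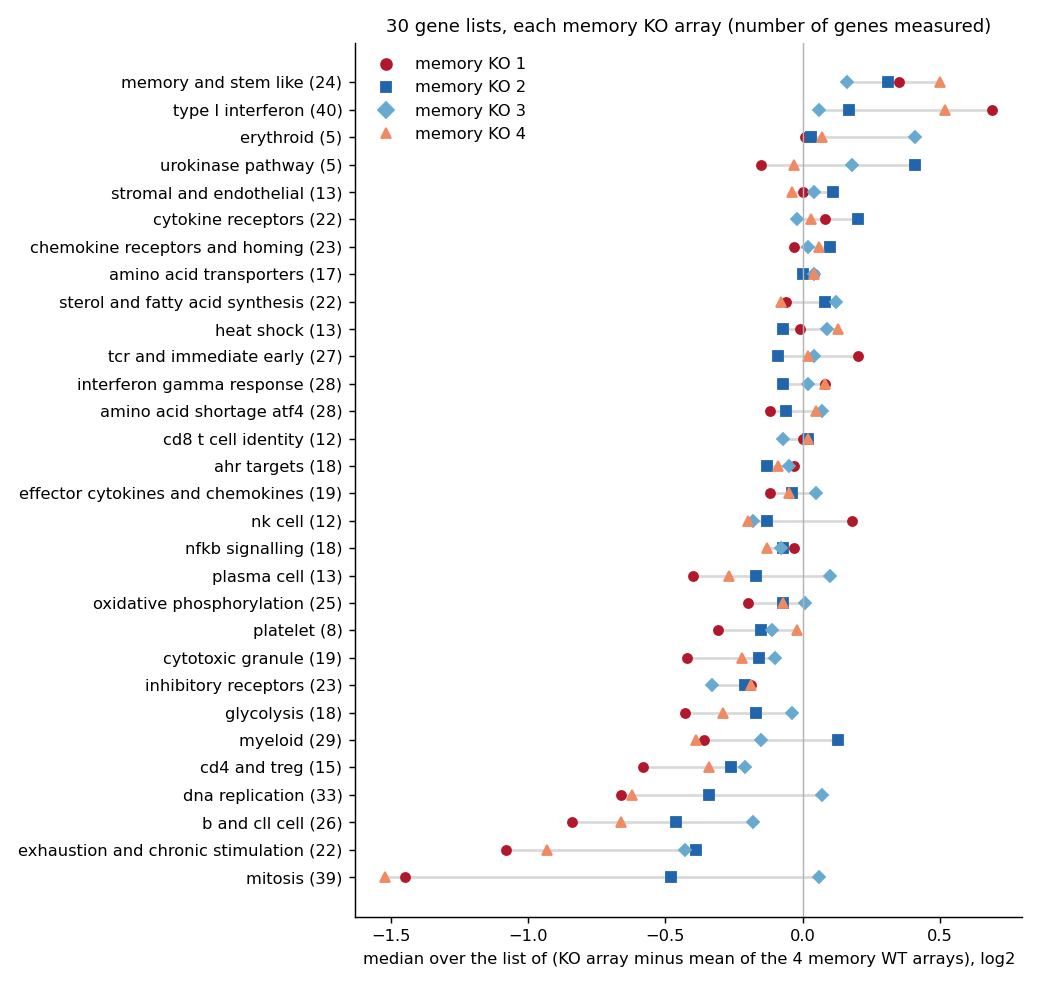
Median over each of 30 gene lists of the log2 difference between 1 memory KO array and the mean of the 4 memory WT arrays (horizontal axis), a symbol per KO array, with the number of measured genes in brackets. The 4 symbols lie farthest apart for mitosis, from -1.52 on KO 4 to 0.06 on KO 3.

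The other called genes belong to no common programme of the lists. Klk1b22, a kallikrein-family protease, rose most, at 9.03, 8.34, 7.94 and 8.21 in KO and 2.29, 2.29, 3.07 and 2.26 in WT (5.90 ± 0.27, adjusted p = 3.43e-09). Its WT values are below the array medians, so the size of the fold is uncertain, and it stood at 6.05 in effector cells too. The other 10 measured Klk1b genes lay between -0.69 and 0.27 (smallest adjusted p = 0.606), and their near-identical sequences leave the split of signal among them uncertain. Plaur, the receptor that holds urokinase at the cell surface, rose from 4.10, 4.68, 4.78 and 5.44 in WT to 6.65, 6.17, 6.44 and 6.04 in KO (1.58 ± 0.22, adjusted p = 0.00615). Of the 5 measured genes of the urokinase pathway it was the 1 called, and in effector cells it stood at 0.11. Fbxo17, of an F-box protein, rose (6.37, 5.79, 5.78 and 6.06 in KO, 4.10, 4.75, 4.45 and 4.50 in WT, 1.55 ± 0.18, adjusted p = 0.00188). In all 3 genes every KO array lay above every WT array, KO 1 highest each time.

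Alkbh6, of the AlkB dioxygenase family, fell, at 5.93, 5.75, 5.81 and 5.40 in KO and 6.86, 6.65, 6.47 and 6.58 in WT (-0.92 ± 0.11, adjusted p = 0.00188). Ech1, an enzyme of fatty acid beta-oxidation, fell by 0.72, from 9.55, 9.78, 9.63 and 9.56 to 8.81, 8.95, 9.04 and 8.84 (SE 0.09, adjusted p = 0.00254), and Scd1, the stearoyl-CoA desaturase, fell by 1.26, from 4.47, 5.02, 4.94 and 4.09 to 3.39, 2.85, 4.05 and 3.18 (SE 0.23, adjusted p = 0.0486). Trerf1, a transcriptional regulator, read 5.85, 6.34, 6.50 and 6.18 in KO and 7.31, 7.54, 7.22 and 7.15 in WT (-1.09 ± 0.14, adjusted p = 0.0025). In Ech1 the gap between the groups was wider than the range of either group, while in Scd1 the highest KO array lay just under the lowest WT array. Tbc1d17, a regulator of Rab GTPases, fell from 7.24, 7.10, 7.27 and 7.35 to 6.27, 6.20, 5.87 and 5.89 (-1.18 ± 0.19, adjusted p = 0.0173), and Wdtc1, an adaptor of a ubiquitin ligase, rose from 8.29, 8.23, 8.36 and 8.39 to 8.83, 8.97, 8.86 and 9.10 (0.62 ± 0.08, adjusted p = 0.00311). Klk1b22, Fbxo17, Alkbh6, Trerf1, Ech1, Wdtc1, Plaur and Irgc1 were the 8 genes called in all 8 fits that left out 1 memory array. Fitted on the 8 memory arrays alone, 5 of the 25 calls were kept, among them Klk1b22, Fbxo17, Tbc1d17 and Adgre4, and 20 were lost. Alkbh6, Trerf1, Ech1, Wdtc1, Plaur, Irgc1, Ifng and Ccl4 were among those lost. Irgc1 rose by 1.31 ± 0.19, Igsf23 by 1.23 ± 0.22, and the zinc finger genes Zfp946 and Zfp128 by 0.86 ± 0.14 and 0.72 ± 0.11. Irgc1, Zfp946 and Scd1 were dim, exceeding the median of their array 3, 0 and 3 times in 8. Lsr, a lipoprotein receptor gene, fell (-0.82 ± 0.14), as did Gtdc1 (-0.52 ± 0.09), Zfp41 (-0.57 ± 0.11) and Rnase6, a ribonuclease gene (-1.19 ± 0.22). Cd22 and Adgre4 are given below with the markers of other cells, and 3 predicted or unnamed genes complete the calls.

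The chromosome of Il4i1 held 12 of the 25 called genes, while 8.83% of the genes tested lie on it. Counted in measured genes along chromosome 7, Tbc1d17 is 1 gene away from Il4i1 and Klk1b22 is 28 away. Lsr, Cd22, Alkbh6, Ech1 and Fbxo17 lie 164, 169, 205, 250 and 259 genes away, Plaur and Irgc1 382 and 383, Igsf23 443 and Zfp128 596. Whether sequence linked to the deleted gene bears on these differences was not tested. Of the 8 genes called in every fit with 1 array left out, Trerf1 and Wdtc1 lie on other chromosomes, 17 and 4.

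Between memory and effector cells, 6 of the 25 genes were called in both (0.0541% of all genes were called in effector cells), and 19 had the same sign. The test of the difference between both contrasts called 0 genes (0%) in limma, with 1296 genes (5.84%) at an unadjusted p under 0.05. Plaur differed by 1.58 ± 0.22 in memory and 0.11 ± 0.22 in effector cells (interaction 1.46 ± 0.31, adjusted p = 0.62), Ccl4 by -0.81 ± 0.13 and 0.06 ± 0.13 (interaction -0.86 ± 0.19, adjusted p = 0.62). Igsf23 was on the other side, with 1.23 ± 0.22 in memory and 1.84 ± 0.22 in effector cells (interaction -0.61 ± 0.31, adjusted p = 0.841). No gene was therefore shown to respond differently in memory cells.

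**Figure D4:**
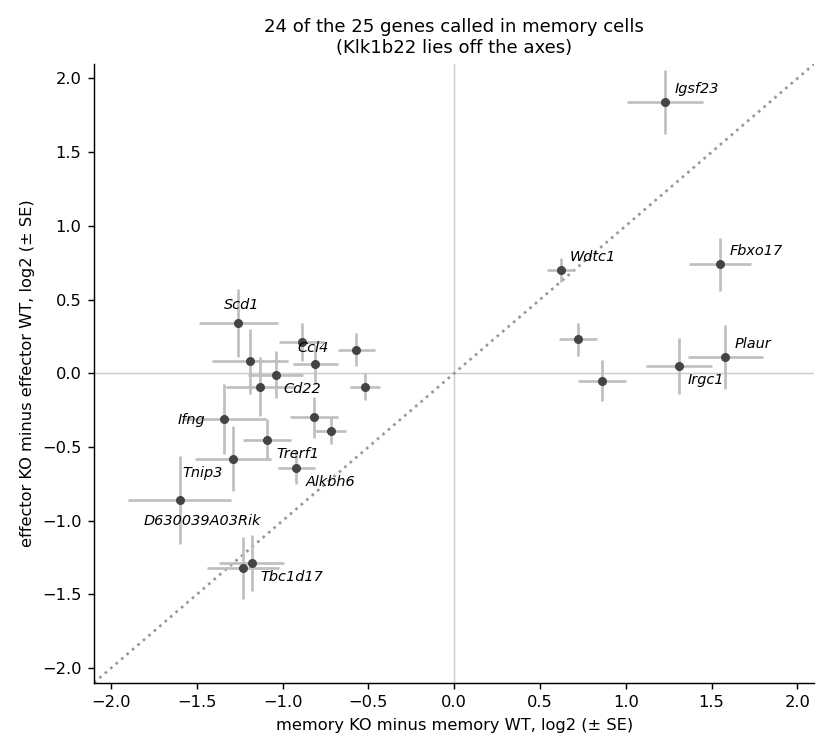
KO minus WT log2 difference in memory cells (horizontal axis) and in effector cells (vertical axis) for 24 of the 25 genes called in memory cells, with SE bars and the line of equal difference dotted; Klk1b22, at 5.90 and 6.05, is off the axes. Plaur, Irgc1, Ccl4 and Cd22 lie near 0 in effector cells, Tbc1d17 and Wdtc1 near the line.

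Markers of B cells, of CD4 and regulatory T cells and of myeloid cells were mostly lower in KO. Of 26 measured B and CLL cell markers, 22 were lower in KO and 1 was called, with a median of -0.55. In 15 the unadjusted p was under 0.05 downward, against 6.08% of all genes. Cd22, an inhibitory receptor of B cells, fell, at 4.47, 4.30, 4.55 and 4.75 in KO and 6.08, 5.71, 5.16 and 5.26 in WT (-1.04 ± 0.16, adjusted p = 0.0145). Ms4a1, which encodes CD20, read 4.44, 3.98, 4.56 and 4.10 in KO and 6.46, 6.19, 5.08 and 4.93 in WT (-1.40 ± 0.30, adjusted p = 0.0817), and Pax5, the B lineage regulator, 3.67, 4.35, 4.96 and 4.11 against 5.81, 5.56, 5.06 and 5.01 (-1.09 ± 0.23, adjusted p = 0.0797). WT 1 and WT 2 were the highest arrays in all 3 genes. The list mean was 5.12, 5.20, 5.62 and 5.10 on KO arrays 1 to 4 and 6.20, 5.92, 5.70 and 5.51 on WT arrays 1 to 4, beside 4.50 to 4.61 on effector WT arrays. The summed unlogged signal was 3951 to 4819 in KO and 3609 to 6072 in WT, a sum in which bright genes such as Ighm weigh most. Ighm, the heavy chain of IgM, was high on all arrays, 11.34, 11.10, 11.42 and 11.48 in KO and 11.60, 11.03, 11 and 10.75 in WT, and its groups overlapped. KO 3 lay within the WT range of this list mean. Without memory KO 3, 10 of the 26 B and CLL markers were called, against 1.12% of all genes, which describes the list and does not test it. Their part in the differences of the other groups was not tested.

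Among markers of CD4 and regulatory T cells, 11 of 15 were lower, 0 were called and the median was -0.39, with a summed signal of 1215 to 1937 in KO and 2111 to 2555 in WT. Those without overlap included Ctla4 (-0.82 ± 0.23), Izumo1r, a folate receptor family member (-0.79 ± 0.24), Ikzf2 (-1.41 ± 0.49) and Tnfrsf4, which encodes OX40 (-1.39 ± 0.49), genes that activated CD8 T cells can express too. Cd4 itself was low, 3.96 to 4.41 in KO and 4.35 to 5.17 in WT, but exceeded the median of its array 7 times in 8. It differed by -0.39 ± 0.18 (adjusted p = 0.438). Foxp3 lay at 5.23 to 5.90 in KO and 5.23 to 5.81 in WT. Of 29 myeloid markers, 23 were lower and Adgre4, an adhesion receptor of macrophages, fell, at 3.81, 4.34, 3.95 and 3.80 in KO and 4.95, 5.23, 5.07 and 5.16 in WT (-1.13 ± 0.20, adjusted p = 0.0334). The myeloid list mean was 5.23, 5.8, 5.46 and 5.14 on KO arrays 1 to 4 and 5.54 to 5.78 in WT. KO 2 was thus the highest of all 8 arrays and KO 1 and KO 4 the lowest, with a list median of -0.26 and a summed signal of 3548 to 4217 in KO and 3723 to 4916 in WT. Lyz2, a macrophage lysozyme, read 5.76, 6.83, 6.48 and 5.05 in KO and 6.81, 6.82, 6.89 and 6.80 in WT (-0.80 ± 0.29, adjusted p = 0.301). The part of these cells in the differences above was not tested. Median differences of plasma cell, natural killer, platelet, erythroid and stromal markers were -0.08, -0.06, -0.14, 0.19 and 0.07, and that of 12 CD8 T cell identity genes was -0.01, with 0 called on each of these lists.

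Among metabolic genes, 15 of 18 glycolysis genes were lower (median -0.23) and 20 of 25 of oxidative phosphorylation (median -0.10), with 0 called on either. Tpi1, triosephosphate isomerase, read 9.07, 9.87, 10.25 and 9.06 in KO and 10.52, 10.66, 10.36 and 10 in WT (-0.82 ± 0.27, adjusted p = 0.261), so KO 3 was inside the WT range and KO 1 and KO 4 lowest. The list for the aryl hydrocarbon receptor, which products of the IL4I1 enzyme can activate, had a median of -0.03 over 18 genes. It holds Ahr, Arnt, Ido1 and Ido2 beside targets of the receptor. Of the 18 genes, 6 were higher and 12 lower with 0 called. Only 8 of the 18 were above the array median on at least 4 memory arrays. The list is therefore mostly at dim signal. Entpd1, which is on this list too, stood at -1.12 ± 0.26 (adjusted p = 0.115) without overlap. Ahr, the receptor gene, read 4.88, 5.73, 5.47 and 5.12 in KO and 6.21, 6.09, 5.88 and 5.83 in WT (-0.70 ± 0.29, adjusted p = 0.368), lower on all KO arrays. Genes of the ATF4 response to amino acid shortage had a median of 0.01 over 28 genes with 0 called, and Asns, asparagine synthetase, stood at -0.47 ± 0.22 (adjusted p = 0.429). The 17 amino acid transporter genes had a median of 0.04 with 0 called, and Slc1a5, a glutamine carrier, read 9.38, 9.39, 9.33 and 9.44 in KO and 9.73, 9.63, 9.57 and 9.81 in WT (-0.30 ± 0.09, adjusted p = 0.216). Medians of sterol and fatty acid synthesis, T cell receptor and immediate early, heat shock, chemokine receptor and cytokine receptor genes lay between 0.03 and 0.05.

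Among themselves, the 4 memory KO arrays fell into pairs by correlation over genes, KO 1 with KO 4 (0.99) and KO 2 with KO 3 (0.991), with 0.985 to 0.987 across. KO 2 and KO 3 correlated with WT arrays at 0.985 to 0.992, so at most as highly with each other as with WT. KO 1 and KO 4 correlated with WT at 0.976 to 0.986. The pairing of KO arrays was seen in the values and is in no label, so the arrays of a pair are described and not tested as groups. The counts that follow are over the 12426 genes above the array median on at least 4 memory arrays. Genes more than 1 log2 unit below the WT mean numbered 409 on KO 1, 109 on KO 2, 68 on KO 3 and 406 on KO 4, and genes more than 1 above it 168, 19, 13 and 91. Against the mean of the other 3 WT arrays, WT 1 to 4 had 10, 91, 27 and 32 genes below and 30, 119, 11 and 34 above. The median SD over the KO arrays was 0.187 and over the WT arrays 0.16, and 59.4% of genes had the larger SD in KO.

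On 74 of these 12426 genes KO 1 and KO 4 both lay more than 1 below KO 2 and KO 3, and on 18 both lay more than 1 above. In all 74, every WT array was above KO 1 and KO 4, so the pair that stood away from WT was KO 1 and KO 4 each time, and in 23 of them KO 2 and KO 3 were below WT as well. None of the 74 was called, 14 are on the mitosis list, 7 are inhibitory receptor or exhaustion genes, and 0 are replication genes. A higher mean in effector WT than in memory WT was seen in 53. The shares of these traits over all 12426 genes were not counted, so the counts only describe the 74. The widest gaps, named after their values were seen, were in Glp1r, the receptor of glucagon-like peptide 1, at 5.61, 8.11, 7.84 and 5.40 in KO and 8.85, 10.54, 8.64 and 8.56 in WT. Adgrg1, an adhesion receptor of cytotoxic lymphocytes, read 4.67, 7.31, 7.40 and 5.11 in KO and 8.33, 9.37, 8.79 and 7.98 in WT (-2.49 ± 0.62, adjusted p = 0.15). Both genes placed KO 2 and KO 3 between WT and the other KO arrays. Ptprk, a receptor phosphatase, was different, at 6.09, 8.20, 8.71 and 5.18 in KO and 7.78 to 8.31 in WT, since KO 3 lay above WT and KO 2 within it, and Dtl, a cell cycle ubiquitin ligase gene, read 6.16, 8.03, 7.97 and 6.20 in KO and 7.98 to 8.37 in WT.

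**Figure D5:**
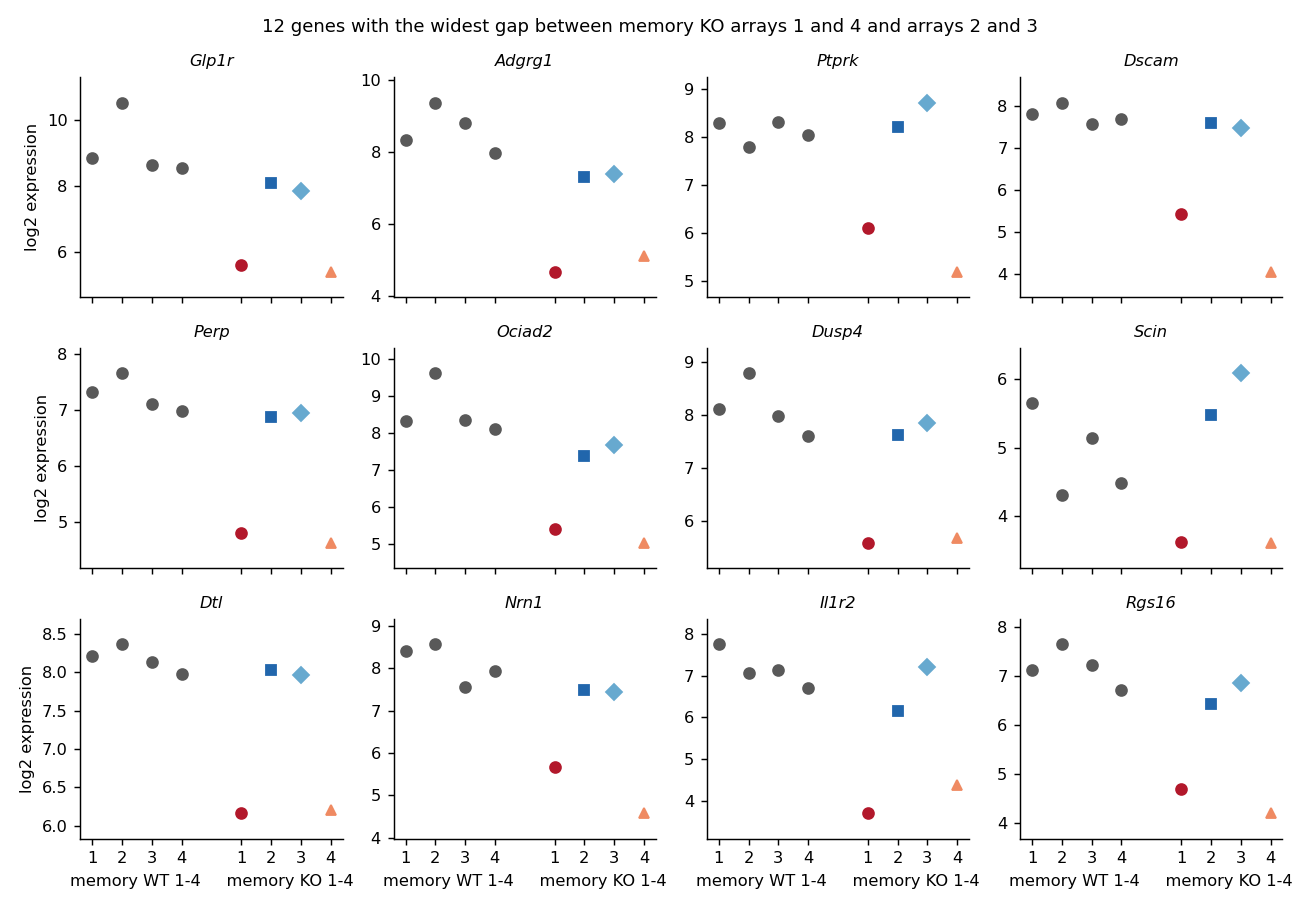
Log2 expression (vertical axes, scaled per gene) of the 12 genes with the widest gap of KO 1 and KO 4 below KO 2 and KO 3, on memory WT arrays 1 to 4 (grey) and memory KO arrays 1 to 4 (coloured). KO 1 and KO 4 lie below all other arrays in each gene, while KO 2 and KO 3 lie below WT in some, such as Adgrg1, and among or above WT in others, such as Ptprk and Scin.

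Of the 18 genes on the other side, 13 had KO 1 and KO 4 above all WT arrays and 6 had KO 2 and KO 3 below all WT arrays, 2 of them both. Small nucleolar RNAs, guides of ribosomal RNA modification, made up 8 of the 18 genes higher on KO 1 and KO 4. Snord99 read 7.90, 4.25, 4.04 and 6.54 in KO and 6.11, 5.76, 5.70 and 6.30 in WT. Over 55 such genes the mean was 6.78, 5.76, 5.76 and 6.19 on KO arrays 1 to 4 and 6.04, 5.83, 5.89 and 6.09 on WT arrays 1 to 4, so KO 1 stood above the rest. Hspa1a, an inducible heat shock protein gene, read 8.04, 4.92, 5.54 and 7.27 in KO and 3.44, 3.86, 4.36 and 7.64 in WT, with WT 4 beside KO 1 and KO 4. The part of these genes in the spread of the KO arrays was not tested. Among the 12 genes with the highest SD over the KO arrays, 6 are small RNAs, and Saa3 and Fn1, of an acute phase protein and fibronectin, stood out through KO 2 alone, at 8.86 and 7.85 beside 4.06 to 5.50 and 4.32 to 5.51 on the other KO arrays. Not all differences followed the pairs: KO 1 and KO 4 were both below KO 2 and KO 3 in 94.9% of the mitosis genes, 69.7% of the replication genes, 77.3% of the exhaustion genes and 34.8% of the inhibitory receptors, and in 24.4% of all genes. Both were above KO 2 and KO 3 in 80% of the type I interferon genes and in 17.6% of all genes.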

How the data were processed

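RNA of sorted memory and effector CD8 T cells, 1 ng a sample, was measured on 16 one-colour Affymetrix arrays, 4 in each of 4 groups, per the labels' protocols. The deposited values were taken as log2 from their range. The log base and any normalization by the authors were not given in the sources used here. Of 41345 probe sets, 23521 had 1 gene symbol in the platform annotation, and the brightest probe set of each gene gave 22180 genes, named through RefSeq (GRCm38.p6). A mean per group was fitted on all 16 arrays with limma 3.58.1 (R 4.3.3, 12 residual degrees of freedom), and two-sided p-values were adjusted over all genes by Benjamini-Hochberg. The script was tested on simulated data. Precision is limited by the number of arrays.

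Members and gene lists were chosen with earlier results of these data known. Named were called genes with a standard symbol, the 10 nearest to the threshold, up to 5 members of smallest p and the first 3 of each list, and the 12 genes of highest SD over the KO arrays. Other list members and the genes of the widest gaps within the KO arrays were chosen after their values were seen. List members without a probe set of their own were not analysed here. Alternatives were the memory arrays alone, 1 effector array left out, a replicate block, other scalings, a filter on dim genes, other summaries of probe sets, other variance models and each memory array left out.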

Additional observations from a re-analysis of the deposited data

Results flagged for a closer look

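Among 288 groups of 4 arrays tested, 21 had 1 array far from the others by Dixon's criterion, which chance gives in about 1 in 20 groups. Memory WT 2 was the array that stood above the other WT arrays for 9 genes: Ifng at 10.38 beside 9.54 to 9.62, Tigit at 10.45 beside 10.01 to 10.08, Nr4a2 at 9.68 beside 8.61 to 8.78, Glp1r at 10.54 beside 8.56 to 8.85, Ociad2 at 9.62 beside 8.11 to 8.36, Mki67 at 10.16 beside 9.77 to 9.81, Cd244a at 8.72 beside 7.23 to 7.44, Ikzf2 at 8.48 beside 7.35 to 7.50, and Stx11 at 7.37 beside 6.51 to 6.60. The mean of the cytotoxic granule list was likewise highest there, 9.05 beside 8.81 to 8.84. Memory WT 2 was the lowest WT array for Ubxn11, at 4.70 beside 5.26 to 5.34, and for Cd5, at 9.72 beside 10.18 to 10.20.

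Memory WT 4 was low for the replication genes, with Cdc45 at 6.90 beside 7.06 to 7.09, the mitotic kinase gene Plk1 at 9.19 beside 9.48 to 9.52, and the replication list mean at 7.30 beside 7.45 to 7.48. Memory WT 3 stood apart for Klk1b22, at 3.07 beside 2.26 to 2.29, and for Tnfaip3, at 8.11 beside 8.41 to 8.46. Memory WT 1 had the highest mean of the interferon gamma response list, 8.21 beside 8.06 to 8.08. Of the KO arrays, KO 2 was low for Hyi, at 8.46 beside 8.65 to 8.69, and high for the urokinase pathway mean, 4.59 beside 4.26 to 4.29, and KO 4 was high for Ifnar2, at 9.90 beside 9.70 to 9.73.

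Of the 17824 probe sets without a single gene symbol, 2 were called by limma when all 41345 were adjusted together, among 13 in all (0.0314%). Probe set 17417699, with no gene listed, read 9.27, 8.09, 7.56 and 8.04 on KO arrays 1 to 4 and 5.34, 5.12, 5.11 and 5.27 on WT arrays 1 to 4, a difference of 3.03 ± 0.31 (adjusted p = 0.00177), with means of 7.55 and 5.61 in effector KO and WT. Probe set 17473310, listed for Eps8l1 and D630041G03Rik, read 4.57, 4.82, 4.78 and 4.0 in KO and 6.37, 6.41, 5.94 and 6.79 in WT, a difference of -1.83 ± 0.27 (adjusted p = 0.0257), with 4.58 and 6.97 in effector KO and WT.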

How the results depend on the processing

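The count of 25 called genes moved with the spread estimate more than with the scaling. It was 7 (2 higher, 5 lower) on the 8 memory arrays alone, 92 (22 higher, 70 lower) without effector KO array 4, 38 (30 lower) with median centring and 42 (30 lower) with array weights, while quantile normalization gave 19, of which 19 were among the 25. With the replicate number as a block it was 104 (14 higher, 90 lower), among them all 25. Expression values of same-numbered KO and WT arrays correlated at 0.983 to 0.992 over genes. The matching by number used a coefficient other than this one. It was 0.02 to 0.12 for same-numbered KO and WT arrays, and 2 of 4 KO arrays matched their own number best. Between memory and effector arrays of 1 genotype it was 0.02 to 0.24 for same numbers. There 7 of 8 memory arrays matched their own number best, at low coefficients of 0.09 to 0.24. It is a weak hint from the data that no label states. Leaving out 1 memory array gave 11 to 249 calls, 6 to 36 higher and 5 to 213 lower. The count was 11 without KO 4, 13 without KO 1, 249 without KO 3, and 13, 12 and 14 without WT 1, 2 and 3. The test of the difference between memory and effector cells called 0 to 5 genes, 5 without KO 3. The causes were not tested.

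Over 114 named genes and 17 settings, 1706 of 1934 values kept direction and side of the threshold, 98 passed it newly, 108 no longer passed and 22 changed sign. Those 22 belong to 6 genes that were never called. With 1 array left out, Fn1 ran from -0.69 to 0.49, Foxp3 from -0.16 to 0.06, Saa3 from -1.06 to 0.54, Scin from -0.66 to 0.16 and Snord99 from -1.02 to 0.26. Fn1 came to 0.01 with quantile normalization, Foxp3 to 0.01 with array weights, and Ighm to -0.05 with the mean of its probe sets. No list median above 0.1 in size changed sign. Signal near background limits Klk1b22, Irgc1, Zfp946 and Scd1.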
